A study of Mus musculus with 17 samples.

Results

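Single-cell RNA-seq of mouse small intestinal organoids was examined for 10 genes whose products Paneth cells store in granules or secrete to act on microbes: Lyz1, Lyz2, Defa24, Defa26, AY761184, Ang4, Itln1, Mmp7, Pnliprp2 and Reg3g. The genes were taken by symbol, and all 10 were present among the 26422 gene symbols of the count tables. Organoids derived from small intestinal crypts of wild-type C57BL/6 mice were held in ENR+CV medium, which contains EGF, Noggin and R-spondin 1 with CHIR99021 and valproic acid to enrich stem cells. At day 0 they were moved to ENR+CD, in which CHIR99021 (a Wnt pathway activator) and DAPT (a Notch pathway inhibitor) drive differentiation towards Paneth cells, either as control or with 160 nM KPT-330. KPT-330 (selinexor) inhibits the nuclear export protein XPO1. Every group therefore came out of ENR+CV, and control and KPT-330 cells shared CHIR99021 and DAPT. The 17 libraries were 2 of ENR+CV at day 0, 7 of control and 8 of KPT-330 at days 0.25, 1, 2, 3, 4 and 6. Of the 13 groups, 4 had 2 libraries, namely ENR+CV at day 0, KPT-330 at day 3, and both conditions at day 6, and the other groups had 1. Each library was made from organoids pooled from several Matrigel domes, so that a library is not an animal, and nothing in the labels ties replicates to separate mice or cultures. The p-values therefore measure the spread between these libraries, which may be technical. Where KPT-330 was tested with day as a covariate, days 0.25, 1, 2 and 4 had 1 library in each condition. That spread thus includes how far the KPT-330 effect differed between days. The test of cell shares measures the spread between days.

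Paneth cells sit at the base of small intestinal crypts between stem cells and mature under Wnt signals once Notch signals are low. They fill large granules with bactericidal proteins, which are released into the crypt lumen, and they also supply growth signals to neighbouring stem cells. Lysozyme cleaves bacterial cell walls, and alpha-defensins disrupt bacterial membranes after the protease matrilysin, encoded by Mmp7, has cut them from inactive precursors. Lyz1 encodes the Paneth cell lysozyme and Lyz2 the lysozyme of macrophages and other myeloid cells. Defa24 and Defa26 encode alpha-defensins, and AY761184 is a related gene of the same cluster. Ang4 encodes a secreted ribonuclease with bactericidal activity, Itln1 a lectin that binds microbial sugars, Reg3g a lectin that binds the wall of Gram-positive bacteria, and Pnliprp2 a lipase related to pancreatic lipase.

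On GRCm38, the lysozyme genes were neighbours on the minus strand, Lyz1 at chr10:117287797-117292868 and Lyz2 at chr10:117277331-117282321. The defensin members lay within one cluster, Defa26 at chr8:21618183-21618972 on the plus strand, AY761184 at chr8:21702519-21703645 on the minus strand and Defa24 at chr8:21734494-21735471 on the plus strand. The remaining genes were at chr1:171518122-171535294 (Itln1, minus), chr6:78466269-78468872 (Reg3g, minus), chr9:7692090-7699585 (Mmp7, plus), chr14:51763878-51773590 (Ang4, minus) and chr19:58759719-58777534 (Pnliprp2, plus). The transcript read of the libraries was 50 bases long. Stretches of coding sequence, 120 bases each and read 5′ to 3′ from the GENCODE vM21 transcripts, are shown because they set how well such a read tells a gene from its relative. The first pair is coding positions 325 to 444 of the lysozymes, with capitals where Lyz2 differs from Lyz1.
Lyz1: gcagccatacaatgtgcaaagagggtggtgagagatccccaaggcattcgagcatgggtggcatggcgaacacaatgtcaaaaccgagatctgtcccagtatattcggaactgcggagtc
Lyz2: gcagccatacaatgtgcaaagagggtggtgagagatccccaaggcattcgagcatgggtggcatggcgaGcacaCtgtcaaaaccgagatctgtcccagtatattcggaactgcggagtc
Only 2 bases of this stretch differed. Over the whole coding sequence of 444 bases, 422 positions were identical (95.0%), and 195 of the 1214 windows of 50 bases in the Lyz1 transcript (16.1%) also occurred in Lyz2. The next pair is coding positions 160 to 279 of Defa24 and Defa26, which cover the end of the precursor, where the mature peptide lies, with capitals where Defa26 differs.
Defa24: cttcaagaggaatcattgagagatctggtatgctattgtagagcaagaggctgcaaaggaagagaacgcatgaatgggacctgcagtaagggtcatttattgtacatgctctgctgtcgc
Defa26: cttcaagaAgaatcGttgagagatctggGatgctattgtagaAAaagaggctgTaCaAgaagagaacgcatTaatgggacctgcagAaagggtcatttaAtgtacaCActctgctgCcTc
These differed at 15 bases, and 249 of 279 coding positions (89.2%) were identical. The start of the coding sequence, positions 1 to 120, is shown for AY761184 against Defa24, with capitals where AY761184 differs.
Defa24: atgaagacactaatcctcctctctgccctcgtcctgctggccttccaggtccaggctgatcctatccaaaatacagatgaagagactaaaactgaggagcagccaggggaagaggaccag
AY761184: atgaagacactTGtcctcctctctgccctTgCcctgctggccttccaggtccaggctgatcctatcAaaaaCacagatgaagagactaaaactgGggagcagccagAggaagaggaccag
Only 8 bases differed here, whereas over the aligned coding sequences identity was 67.0%, the coding length of AY761184 being 348 bases. Windows of 50 bases shared with at least 1 other gene made up 28.1% of the Defa24 transcript, 40.2% of Defa26 and 33.5% of AY761184, against 4.70% of Ang4, 1.01% of Itln1 and 0 for Mmp7, Pnliprp2 and Reg3g. In the last 300 bases of the transcripts the shares were 21.9% for each lysozyme, 27.5% for Defa24, 39.4% for Defa26 and 21.1% for AY761184. Ang4 had 12.4% there and Itln1 0. Values of the lysozymes, the defensins and Ang4 are uncertain, since reads from shared windows cannot be assigned to 1 gene. The shares do not bound the error, because a gene of low count can hold mostly reads of a relative of high count.

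The 250 bases upstream of the transcript start were found in RefSeq (GRCm38.p6) for 7 of the 10 genes, all but Defa24, Defa26 and AY761184. They were searched for CTTTGAT, a core sequence of the TCF and LEF factors that carry Wnt signals, on both strands. It occurred in 1 of the 7, Reg3g, and in 1045 of all 32536 upstream regions of that length (3.21%). Lyz1 (chr10:117292869-117293118, minus strand) and Reg3g (chr6:78468875-78469124, minus strand) are shown, since these were the gene that set the Lyz1-high cells apart and the member that went down during differentiation, with the match in capitals.
Lyz1 upstream: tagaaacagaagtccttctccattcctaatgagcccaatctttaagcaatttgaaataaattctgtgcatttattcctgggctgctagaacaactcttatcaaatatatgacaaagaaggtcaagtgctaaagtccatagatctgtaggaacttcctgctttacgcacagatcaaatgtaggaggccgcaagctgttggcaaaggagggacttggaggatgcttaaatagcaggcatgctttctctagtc
Reg3g upstream: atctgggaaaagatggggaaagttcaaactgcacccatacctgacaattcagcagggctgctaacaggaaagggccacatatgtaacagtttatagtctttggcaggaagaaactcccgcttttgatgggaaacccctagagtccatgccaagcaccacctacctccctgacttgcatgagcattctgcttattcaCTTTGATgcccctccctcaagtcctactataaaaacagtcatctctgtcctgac
A match is a description of these letters and says nothing about binding.

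Of 26229 deposited barcodes, the 19877 cells kept by the authors were used, 531 to 1547 per library, with 3458887 to 12433109 unique molecular identifiers (UMIs, one per captured transcript) in a library and a median of 2676 to 8463 per cell. Only 14 barcodes occurred in more than 1 library, in 28 cells. Levels are given as UMIs of a gene per 10000 UMIs summed over the cells of a library and are not scaled by transcript length, and levels of different genes are not ranked. A lower level in a library can be fewer cells that make the gene or less of it per cell, and these cannot be told apart from the sums. Libraries of days 0.25 and 1 carried replicate number 1 and those of days 2 and 4 and the control of day 3 carried replicate number 2, so that day and replicate number cannot be told apart over that step. KPT-330 day 6 replicate 1 stood apart, with 80.4% Lyz1-high cells (defined below) against 54.4% in its replicate, a median mitochondrial share of 16.5% against 6.31%, and enterocyte markers at 24.04 per 10000 in its Lyz1-high cells against 1.49 to 3.06 in the other day 6 libraries. Results are given with and without it where it matters. Epithelial markers stood at 34.2 to 46.7 per 10000 over the ENR+CD libraries with KPT-330 and 38.9 to 46.7 in control. Of the listed myeloid markers, Itgam had 226 UMIs, Cd68 152, Csf1r 121, C1qa 8 and C1qb 4 over all 17 libraries. The leukocyte marker Ptprc had 3 UMIs, Fcgr3 1 and the macrophage marker Adgre1 0. In Lyz1-high cells Itgam, Cd68 and Csf1r had 38, 30 and 16 UMIs.

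During differentiation in control medium, 9 of the 10 genes rose and Reg3g fell. Lyz1, the Paneth cell lysozyme, stood at 8.70 and 13 UMIs per 10000 in the day 0 libraries, at 10.4, 16.1, 40.7, 77.0 and 136 in the control libraries of days 0.25, 1, 2, 3 and 4, and at 121 and 132 at day 6. Defa24 went from 5.80 and 12.9 at day 0 through 7.47, 23.1, 98.3, 189 and 360 to 457 and 454 at day 6. Both day 6 libraries thus lay above both day 0 libraries with no overlap, and for Lyz1 the day 4 library was the highest control library. Mmp7, the protease that activates defensins, went from 0.879 and 0.718 at day 0 through 0.787, 2.41, 7.69, 18.8 and 27.6 to 38.9 and 35.1. Itln1 went from 9.65 and 8.50 through 10.4, 17.9, 63.1, 182 and 333 to 407 and 425. Together the 10 genes took 0.280% and 0.421% of all UMIs at day 0 and 10.9% and 11.2% at day 6 in control.

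The genes of lower count followed. Ang4, the bactericidal ribonuclease, went from 0.645 and 0.899 at day 0 through 1.04, 0.839, 2.68, 11.1 and 29.9 to 46.9 and 58.8 at day 6. Pnliprp2 went from 0.0960 and 0.152 through 0.0764, 0.187, 1.10, 2.68 and 6.25 to 7.20 and 9.17. For both, the level first left the day 0 range clearly at day 2 or 3. Defa26 went from 0.0625 and 0.0762 through 0.0789, 0.126, 0.353, 1.17 and 2.48 to 5.04 and 3.62, and AY761184 from 0.0112 and 0.0818 through 0.0514, 0.210, 0.659, 1.96 and 2.96 to 3.32 and 2.39. Lyz2 had 0.0179 and 0.0305 in the day 0 libraries and 0.198 and 0.266 in those of day 6. In all 17 libraries Lyz2 had between 1.64 and 2.59 UMIs per 1000 Lyz1 UMIs, a narrow range, and its shared windows with Lyz1 are shown above. How many of its UMIs came from Lyz1 transcripts was not tested. Reg3g, the wall-binding lectin, went the other way, from 2.11 and 5.70 at day 0 and 2.12 at day 0.25 to between 0.232 and 0.468 at days 1 to 4 and 0.810 and 0.394 at day 6.

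**Figure D1:**
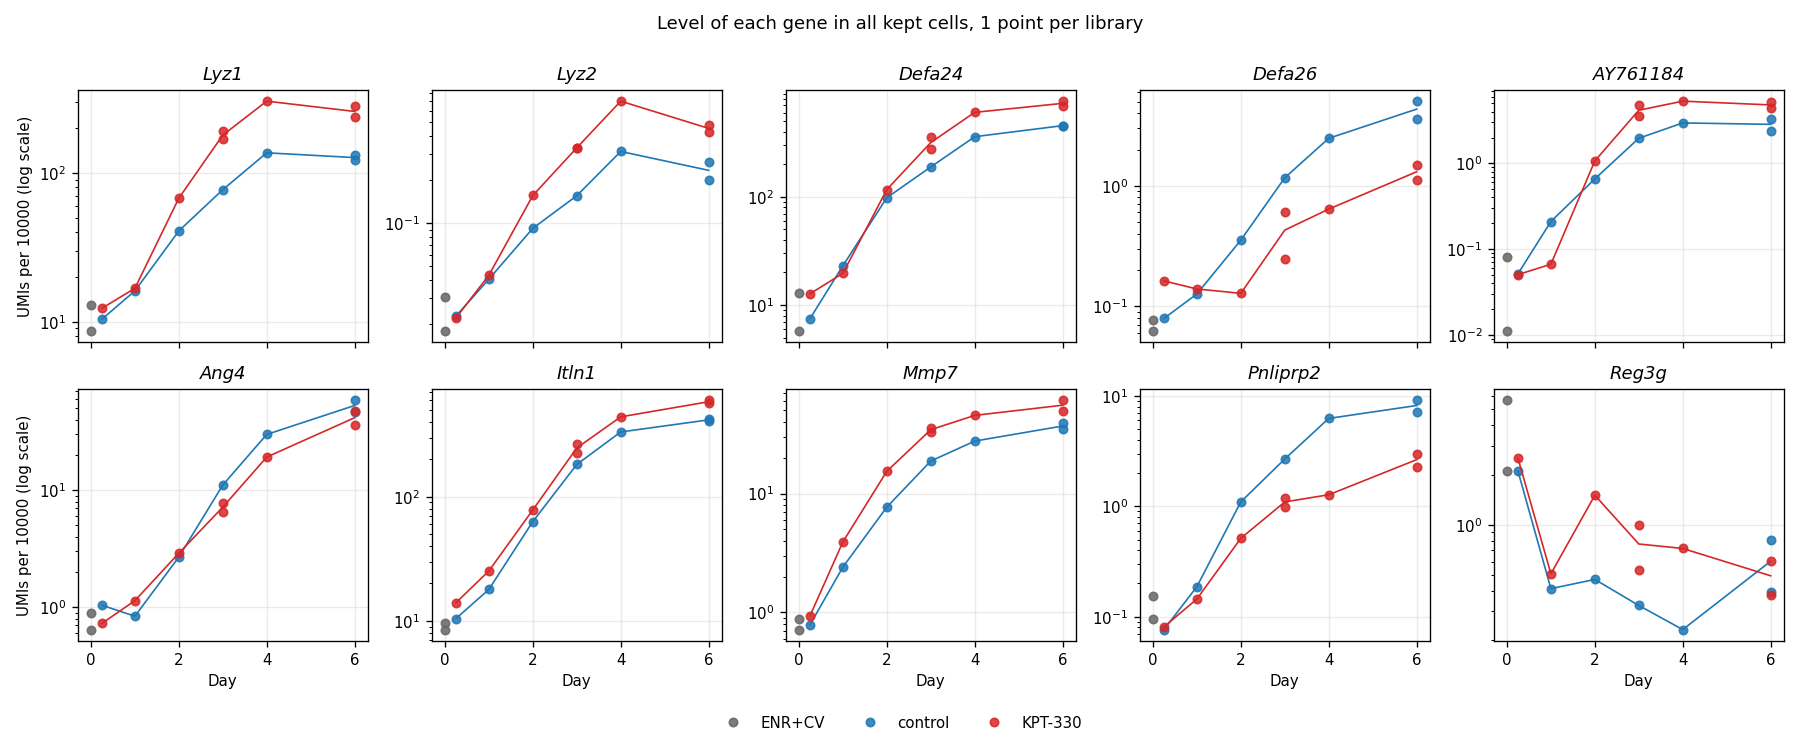
Level of each gene in UMIs per 10000 (log axis) against day, with 1 point per library for ENR+CV, control and KPT-330 and no error bars, since most groups are 1 library. In control, 9 genes climb from day 1 to day 6 (Defa24 from 23.1 to 457 and 454) while Reg3g drops after day 0.25, and the KPT-330 points of Defa26 and Pnliprp2 lie under the control points from day 2.

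All 10 genes passed the count filter in the comparison of day 6 control with day 0 ENR+CV, in which edgeR's quasi-likelihood test with Benjamini-Hochberg adjustment called 39.9% of 13455 genes (19.7% higher and 20.2% lower). All 10 were called, 9 higher and 1 lower, and the median of the 10 log2 fold changes was 5.70 against 0.01 over all genes tested. The steepest rises were those of Ang4 at 6.22 ± 0.30 (SE), Pnliprp2 at 6.14 ± 0.26, Defa26 at 6.08 ± 0.47, AY761184 at 5.96 ± 0.51, Defa24 at 5.75 ± 0.49, Mmp7 at 5.64 ± 0.31 and Itln1 at 5.63 ± 0.40, with adjusted p of 1.3e-05 or less. The lysozymes rose less, Lyz1 by 3.67 ± 0.33 and Lyz2 by 3.31 ± 0.27. Reg3g fell by 2.51 ± 0.48 on the log2 scale (adjusted p = 0.0020). The intervals of the genes other than the lysozymes and Reg3g overlap, so that no order among them is drawn.

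The order of onset was described without a test, as the first day on which a gene reached 10% of its day 6 control level, the day 0 level being subtracted from both. Day 2 was that day for 7 genes, Lyz1, Lyz2, Defa24, AY761184, Itln1, Mmp7 and Pnliprp2. Defa26 and Ang4 reached it at day 3, and Reg3g had no onset because it fell. At day 2 the lysozymes were furthest along, Lyz2 at 32.5% and Lyz1 at 25.8% of the day 6 level, followed by AY761184 at 21.8%, Defa24 at 19.9%, Mmp7 at 19.1%, Itln1 at 13.3% and Pnliprp2 at 12.1%. Defa26 stood at 6.66% and Ang4 at 3.67% on that day. At day 4 the same genes closed the order, Ang4 at 56.0% and Defa26 at 56.5%, while Itln1, Defa24, Pnliprp2 and Mmp7 stood at 74.1% to 79.5% and AY761184, Lyz1 and Lyz2 at 104%, 108% and 139%. Days 0.25 to 4 had 1 control library each, so that neighbouring genes in this order were not separable by replicates, and a bar of 25% instead of 10% left 2 genes with onset at day 2.

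**Figure D2:**
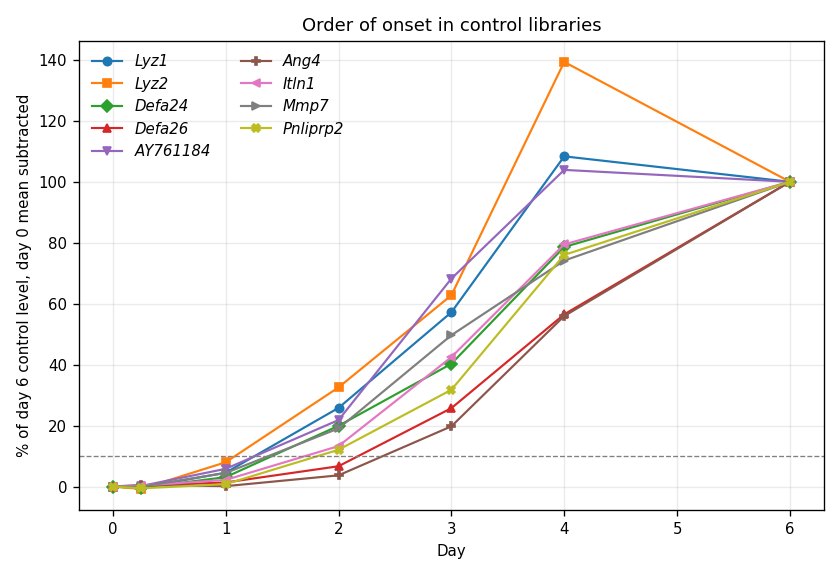
Control level of each gene as a percent of its day 6 mean after subtraction of the day 0 mean, against day, with the dashed line at 10% and Reg3g left out because it fell. Lyz2 and Lyz1 run above the other genes at day 2 (32.5% and 25.8%) and Ang4 and Defa26 run lowest through day 4 (56.0% and 56.5%).

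To look at the genes within the cells that make lysozyme, cells were split by their own Lyz1 level. A cut of 27 Lyz1 UMIs per 10000 was set by Otsu's method over all 11357 kept cells of days 3, 4 and 6, both conditions together. It gave 6308 Lyz1-high and 13569 Lyz1-low cells, and 571 cells lay within 1.25-fold of the cut. In the 7 control libraries 8 of the 9 other genes were higher in Lyz1-high than in Lyz1-low cells in each of the 7 (exact permutation of signs over libraries, two-sided, p = 0.015625 for each gene, which is the lowest value possible with 7 libraries, adjusted p = 0.0175781). The mean log2 ratio was 3.68 ± 1.51 (SD, n = 7) for Ang4, 3.47 ± 1.53 for Defa24, 3.43 ± 0.60 for AY761184, 2.93 ± 0.47 for Defa26, 2.86 ± 0.77 for Itln1, 2.82 ± 1.64 for Mmp7, 2.49 ± 0.31 for Lyz2 and 1.91 ± 0.67 for Pnliprp2. These ratios had 0.1 per 10000 added to both levels, which sets the size for genes of low count. With 0.01 or 1 added instead, Lyz2 had 4.85 or 0.59, AY761184 4.39 or 1.85 and Defa26 3.68 or 1.54, and the 8 genes stayed higher. Lyz2 shares sequence with Lyz1, which chose the cells, so that its result would follow from any Lyz1 reads counted as Lyz2. The part of such reads was not tested. Reg3g had a mean log2 ratio of −0.49 ± 0.53 and was higher in Lyz1-high cells in 2 of 7 libraries (exact permutation p = 0.078125). In the 9 libraries of days 3 to 6, Lyz1-high cells held 70.9% to 92.1% of the Itln1 UMIs, 73.0% to 92.2% of Defa24, 75.7% to 95.0% of Ang4, 75.9% to 93.6% of Defa26, 83.5% to 95.6% of AY761184, 60.7% to 91.7% of Mmp7 and 49.0% to 84.9% of Pnliprp2. For Reg3g the range was 14.8% to 77.5%. Lyz1-high cells were themselves 28.4% to 80.4% of the cells in these libraries, so that the shares also follow the size of the class. The share of all UMIs held there is not given. In KPT-330 day 6 replicate 1, Pnliprp2 stood at 2.32 per 10000 in Lyz1-high and 2.15 in Lyz1-low cells.

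Transcripts of these genes were also counted in cells of another type. Cells with at least 50 UMIs per 10000 of Chga and Chgb together, which are enteroendocrine granule markers, were taken as a type that should lack Defa24. In such day 6 control cells the median Defa24 level was 16.5 and 9.92 per 10000 in the libraries of replicate 1 and 2. The median Lyz1 level was 2.72 and 0. KPT-330 day 6 replicate 1 had the highest of these medians, 65.1 for Defa24 and 14.5 for Lyz1, against 8.09 and 0 in replicate 2. Summed over the Lyz1-low cells among those with these markers at day 6, Defa24 stood at 31.1 and 30.9 in control and at 79.9 and 11.5 with KPT-330. In Lyz1-low cells of day 6 as a whole, summed in the same way, it stood at 182 and 195 in control and at 297 and 274 with KPT-330. Free RNA, doublets and mixed cells were not told apart as their source. The Lyz1-high cells of days 2 to 6 carried goblet markers at 117 to 143 per 10000 in control and 101 to 239 in KPT-330, all 8 listed markers being in the tables. Most of that sum was Tff3 (57.9 to 97.1 in control, 63.5 to 94.4 in KPT-330) and Fcgbp (26.1 to 80.2 and 29.5 to 137), while Muc2 was at 1.84 to 4.38 and 2.51 to 4.50 and Clca1 at 0.0505 or less.

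Lyz1-high cells were more frequent with KPT-330 on each of the 6 days. They made up 3.95% and 4.85% of cells at day 0. At days 0.25, 1 and 2 the share was 4.82%, 8.31% and 22.9% in control and 6.73%, 9.91% and 31.0% with KPT-330. At days 3 and 4 it was 28.4% and 35.1% in control against 54.6% and 42.4% in the KPT-330 libraries of day 3 and 58.1% at day 4. Both KPT-330 libraries of day 6, at 80.4% and 54.4%, lay above both control libraries, at 42.0% and 34.8%. The log2 odds ratio was 0.51, 0.28, 0.60, 1.21, 1.35 and 1.70 in order of day, with a mean of 0.94 ± 0.56 (SD, n = 6 days, exact permutation of signs over days, two-sided, p = 0.03125, the lowest value possible with 6 days). With cells chosen by Defa24 instead, at a cut of 78 UMIs per 10000 set after the data had been seen, the mean was 0.84 and the odds were higher on 5 of 6 days (exact permutation p = 0.0625). The exception was day 1, at −0.14.

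**Figure D3:**
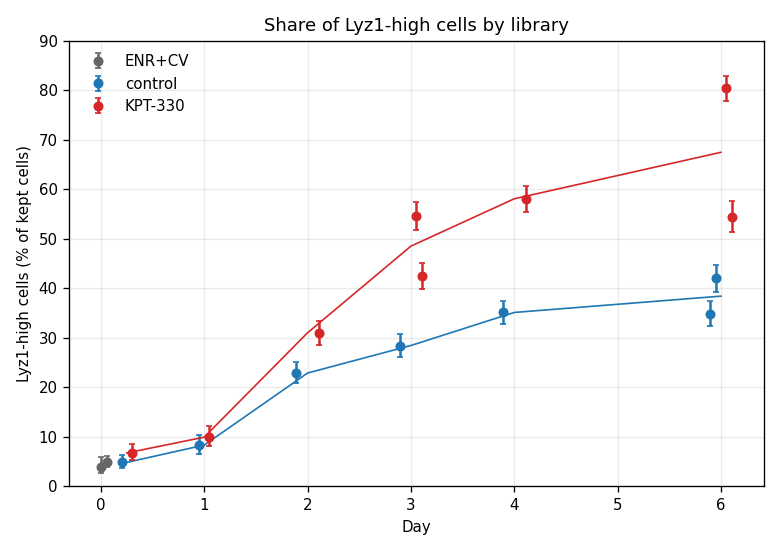
Share of Lyz1-high cells in percent of kept cells against day, 1 point per library, with bars that are 95% Wilson intervals and cover counting error only. KPT-330 libraries lie above control from day 2 (31.0% against 22.9%) and reach 80.4% and 54.4% against 42.0% and 34.8% at day 6.

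Over all cells, KPT-330 went with more lysozyme, Defa24, AY761184, Itln1, Mmp7 and Reg3g, with less Defa26 and Pnliprp2, and with no change called for Ang4. The fit held 7 control and 8 KPT-330 libraries with day as a covariate, and edgeR's quasi-likelihood test called 28.6% of 12812 genes (14.4% higher and 14.2% lower). All 10 genes passed the filter and 9 were called, 7 higher and 2 lower, with a median log2 fold change of 0.84 against 0.00 over all genes. The groups were separated on days 2, 3, 4 and 6 for 8 of them. On each of these 4 days every KPT-330 library lay above every control library for Lyz1, Lyz2, Defa24, AY761184, Itln1 and Mmp7 and below for Defa26 and Pnliprp2. Days 2 and 4 had 1 library in each condition, so that any unequal values count as separated there. The share of all genes separated in this way was not computed, and the count is a description only.

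Lyz1 stood at 67.5 UMIs per 10000 with KPT-330 at day 2, 190 and 168 at day 3, 303 at day 4 and 237 and 279 at day 6, against the control values above, and rose by 1.07 ± 0.20 on the log2 scale (SE, adjusted p = 0.0021). Lyz2 rose by 1.23 ± 0.15 (adjusted p = 0.00025) from KPT-330 values of 0.155 at day 2 to 0.425 and 0.482 at day 6. The lysozymes were thus about doubled from day 3. Defa24 stood at 117, 359 and 278, 605, and 768 and 697 on the same days and rose by 0.81 ± 0.19 (adjusted p = 0.0080). AY761184 stood at 1.07, 4.77 and 3.56, 5.32, and 5.13 and 4.48 and rose by 0.87 ± 0.26 (adjusted p = 0.023). Defa26, of the same gene cluster, went the other way. It stood at 0.128 with KPT-330 at day 2, 0.609 and 0.247 at day 3, 0.640 at day 4 and 1.49 and 1.12 at day 6, below the control values of 0.353, 1.17, 2.48, and 5.04 and 3.62, and fell by 0.93 ± 0.28 (adjusted p = 0.025).

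The protease Mmp7 rose by 0.95 ± 0.12 (adjusted p = 0.00036), with KPT-330 values of 15.4, 35.9 and 33.0, 45.4, and 49.6 and 61.1. Itln1 rose by 0.71 ± 0.14 (adjusted p = 0.0033), with 78.4, 268 and 226, 440, and 564 and 601. Both lectins were called higher, since Reg3g rose by 0.93 ± 0.29 (adjusted p = 0.027), with KPT-330 values of 1.51, 0.532 and 1.00, 0.720, and 0.607 and 0.377 against 0.468, 0.325, 0.232, and 0.810 and 0.394 in control. The Reg3g groups overlapped at day 6. Markers of other cell types also differed between the conditions. The 8 enterocyte markers summed to 118, 56.4, 27.8, and 33.4 and 21.2 per 10000 in control on days 2, 3, 4 and 6 and to 197, 138 and 190, 95.5, and 40.3 and 18.0 with KPT-330, higher on days 2 to 4 and overlapping at day 6. The 10 enteroendocrine markers summed to 13.6, 42.2, 48.7, and 71.2 and 78.1 in control and to 2.70, 14.3 and 12.1, 21.2, and 31.1 and 62.9 with KPT-330, lower on all 4 days. Cells with at least 50 UMIs per 10000 of Apoa1, Apoa4, Fabp1 and Fabp2 together were taken as cells with enterocyte markers. Those that were Lyz1-low held more Reg3g than Lyz1-low cells as a whole in each library of days 2 to 6 with enough such cells. At day 2 the values were 0.893 against 0.547 per 10000 in control and 2.45 against 1.82 with KPT-330. The part of these cell types in the differences over all cells was not tested. Pnliprp2 fell by 1.02 ± 0.17 (adjusted p = 0.0011), with KPT-330 values of 0.513, 1.20 and 0.995, 1.27, and 2.29 and 3.00 against 1.10, 2.68, 6.25, and 7.20 and 9.17 in control. Ang4 had a log2 fold change of −0.03 ± 0.13 (adjusted p = 0.89), with KPT-330 values of 2.89, 7.84 and 6.48, 19.2, and 35.8 and 47.3 against 2.68, 11.1, 29.9, and 46.9 and 58.8.

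The scaling between libraries bears on these sizes. The 10 genes took 16.6% and 17.0% of all UMIs in the KPT-330 libraries of day 6 and 10.9% and 11.2% in control. With these genes and the other alpha-defensins left out of library sizes and factors, 9 of the 10 were called, 7 higher and 2 lower. In that setting 3664 of 12812 genes were called, and Lyz1 stood at 1.07. With total UMIs as the only scaling in place of TMM, the median over all genes moved from 0.00 to −0.27 and the called genes from 1841 higher and 1820 lower to 470 higher and 4879 lower. The part of the 10 genes in that move was not tested. On total UMIs 8 of the 10 genes were called, 6 higher and 2 lower, with Lyz1 at 0.80, Defa24 at 0.53, Itln1 at 0.44, Mmp7 at 0.68, Defa26 at −1.23 and Pnliprp2 at −1.31. Reg3g was no longer called (0.67, adjusted p = 0.054), and Ang4 moved to −0.30 (adjusted p = 0.093). Without KPT-330 day 6 replicate 1, 7 of the 10 were called, AY761184 (adjusted p = 0.0565) and Reg3g (adjusted p = 0.0534) being lost.

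At day 6 alone, with 2 libraries in each condition, edgeR called 1.25% of 13455 genes (0.624% in each direction) and 3 of the 10. Lyz1 rose by 1.43 ± 0.30 (adjusted p = 0.049), Lyz2 rose by 1.39 ± 0.21 (adjusted p = 0.028) and Pnliprp2 fell by 1.24 ± 0.20 (adjusted p = 0.028). The ratio of KPT-330 to control was 1.96 among libraries of replicate 1 and 2.11 among those of replicate 2 for Lyz1, 0.296 and 0.309 for Defa26, and 0.318 and 0.327 for Pnliprp2. Without KPT-330 day 6 replicate 1 only Lyz2 was called (adjusted p = 0.049), and leaving out any 1 of the other 3 day 6 libraries left none, so that these calls rest on single libraries. Over 24 alternative settings Lyz1 was called in 6, Lyz2 in 21 and Pnliprp2 in 20. On total UMIs alone, Lyz2, Defa26 and Pnliprp2 were called.

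Within Lyz1-high cells the pattern was narrower. Defa26, Pnliprp2 and Ang4 were lower with KPT-330 and Mmp7 was higher, while Lyz2, Defa24, AY761184, Itln1 and Reg3g did not pass the test. The test over 15 libraries called 6.63% of 11057 genes (3.99% higher and 2.64% lower) and 4 of the 9 genes other than Lyz1, which had set the cells apart. The median of the 9 was 0.22 against 0.00 over all genes. Enterocyte markers in these cells were higher with KPT-330 in every library of days 2 to 6, the sum of the 8 listed genes standing at 3.06 to 24.04 per 10000 against 1.49 to 2.73 in control, with Sis at 0.516 to 4.04 against 0.225 to 0.306 and Alpi at 0.129 to 0.727 against 0.0211 to 0.0423. The part of these transcripts in the differences was not tested. On each of the days 2, 3, 4 and 6, every KPT-330 library lay below every control library for Defa26, Pnliprp2 and Ang4. Days 2 and 4 had 1 library in each condition, and the share of all genes separated in this way was not computed.

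Defa26 in Lyz1-high cells stood at 1.23, 3.28, 5.36, and 9.79 and 7.41 per 10000 in control on days 2, 3, 4 and 6, against 0.351, 1.07 and 0.599, 1.01, and 1.71 and 1.62 with KPT-330. It fell by 1.60 ± 0.25 on the log2 scale (adjusted p = 0.0013), and the ratio of KPT-330 to control went from 0.29 at day 2 to 0.19 at day 6. Defa26 was higher at day 6 than at day 2 in both conditions, with every KPT-330 library below the control library of day 3 from day 2 to day 6. Pnliprp2 stood at 1.50, 5.21, 12.4, and 12.6 and 17.6 in control against 0.657, 1.61 and 1.32, 1.59, and 2.32 and 4.11 with KPT-330, and fell by 1.73 ± 0.21 (adjusted p = 0.00017). Ang4 stood at 8.88, 28.3, 65.9, and 92.6 and 120 in control against 7.86, 14.0 and 16.2, 31.1, and 41.9 and 68.1 with KPT-330, and fell by 0.58 ± 0.16 (adjusted p = 0.035). Mmp7 stood at 22.6, 41.2, 49.6, and 64.8 and 57.4 in control against 38.6, 58.9 and 70.8, 66.9, and 57.4 and 78.4 with KPT-330, and rose by 0.51 ± 0.14 (adjusted p = 0.041). The Mmp7 groups were separated on days 2 to 4 and overlapped at day 6.

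The other members had higher estimates that did not pass the test. Lyz2 had a log2 fold change of 0.49 ± 0.15 (adjusted p = 0.058), and Reg3g 0.48 ± 0.25 (adjusted p = 0.29). Defa24 had 0.27 ± 0.13 (adjusted p = 0.25), with 320, 484, 747, and 840 and 895 in control against 310, 622 and 662, 944, and 891 and 957 with KPT-330. Itln1 had 0.22 ± 0.13 (adjusted p = 0.34) and AY761184 0.21 ± 0.18 (adjusted p = 0.57). Lyz1 itself, as a description, stood at 1.26, 1.59, 1.50 and 1.18 times its control level in Lyz1-high cells on days 2, 3, 4 and 6.

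**Figure D4:**
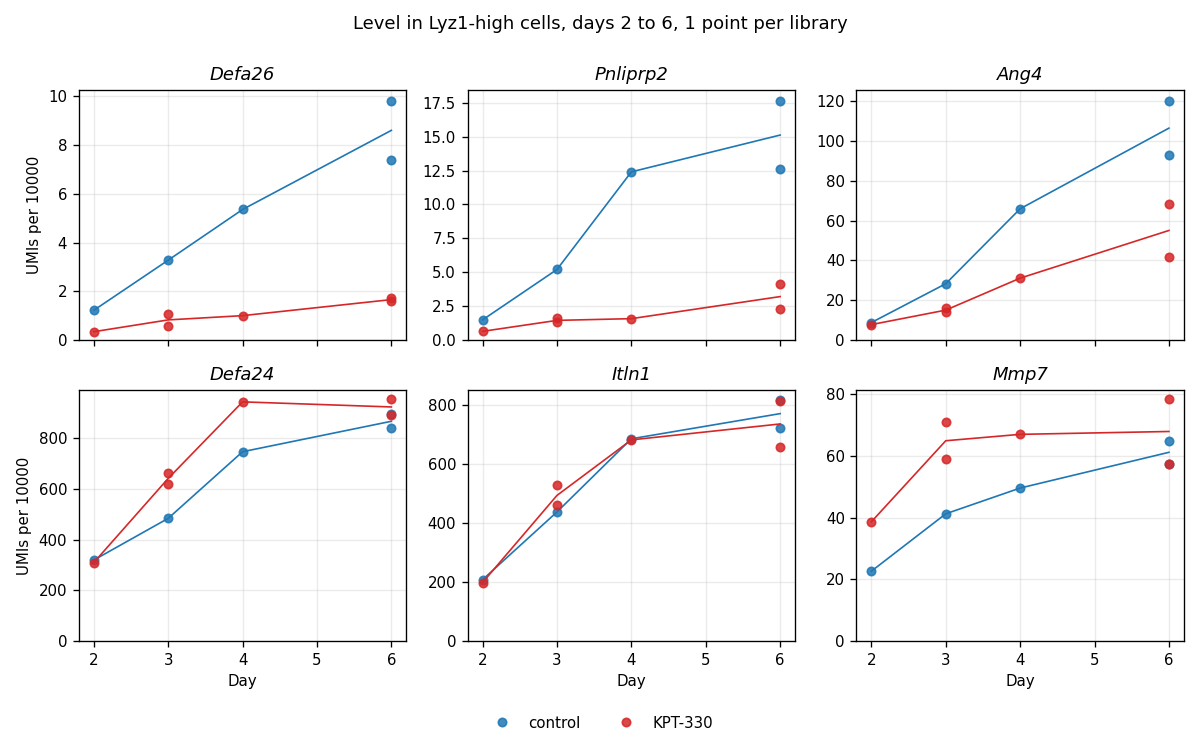
Level of Defa26, Pnliprp2, Ang4, Defa24, Itln1 and Mmp7 in Lyz1-high cells in UMIs per 10000 (linear axis) against day, for days 2 to 6. Each control or KPT-330 library is 1 point, without error bars. Defa26 and Pnliprp2 split from day 2 on, reaching 9.79 and 7.41 against 1.71 and 1.62 for Defa26 at day 6, while Defa24 at day 6 (840 and 895 against 891 and 957) lies close together.

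The calls on Defa26 and Pnliprp2 held in 27 of 27 alternative settings. That of Ang4 held in 20 of 27 and that of Mmp7 in 12 of 27, and both were lost without control day 3 replicate 2, without control day 4 replicate 2 and without KPT-330 day 4 replicate 2, which left Defa26 and Pnliprp2. On total UMIs alone, the median of all genes moved to −0.15, and 3 genes were called, all lower, with Mmp7 at 0.38 (adjusted p = 0.087). Without KPT-330 day 6 replicate 1, 5 genes were called, Lyz2 being added (0.57, adjusted p = 0.0271). In Defa24-high cells, which Defa24 had set apart, edgeR called 5% of 11416 genes (2.85% higher and 2.15% lower). In these cells Defa26 fell by 1.52 ± 0.27 (adjusted p = 0.0049) and Pnliprp2 by 1.77 ± 0.21 (adjusted p = 0.00034). Lyz1 (0.56, adjusted p = 0.043), Lyz2 (0.72, adjusted p = 0.0061) and Mmp7 (0.50, adjusted p = 0.047) rose. Ang4 had −0.50 ± 0.18 there (adjusted p = 0.125). Of the Lyz1-high cells, 92.6% were also Defa24-high.

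The same difference appeared as a share of cells. With each cell thinned to 1000 UMIs, Defa26 was detected in 57.9% and 44.2% of Lyz1-high cells in control at day 6 and in 14.4% and 14.7% with KPT-330. Pnliprp2 was detected in 52.4% and 62.7% against 18.5% and 23.3%, and Ang4 in 85.3% and 82.4% against 76.9% and 71.6%. Unthinned, the shares for Defa26 were 92.1% and 74.1% against 44.7% and 42.2%, at median depths of 8602 and 2962 against 4149 and 4178 UMIs. In Lyz1-low cells with enteroendocrine markers, thinned in the same way, Defa26 was detected in 1.37% and 1.35% of control cells and in 2.08% and 0 of KPT-330 cells (0 of 177 cells), at median depths of 7698, 2327, 3804 and 2467 UMIs. The corresponding Pnliprp2 shares were 4.11%, 2.69%, 6.25% and 1.13%. Detection of both genes in Lyz1-high cells was thus above that in these cells in both conditions. Lyz1-low cells with enterocyte markers held more Pnliprp2, at 5.30 and 8.82 per 10000 in control at day 6, under the 12.6 and 17.6 of Lyz1-high cells. In KPT-330 day 6 replicate 1 they held 3.87, above the 2.32 of its Lyz1-high cells.

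**Figure D5:**
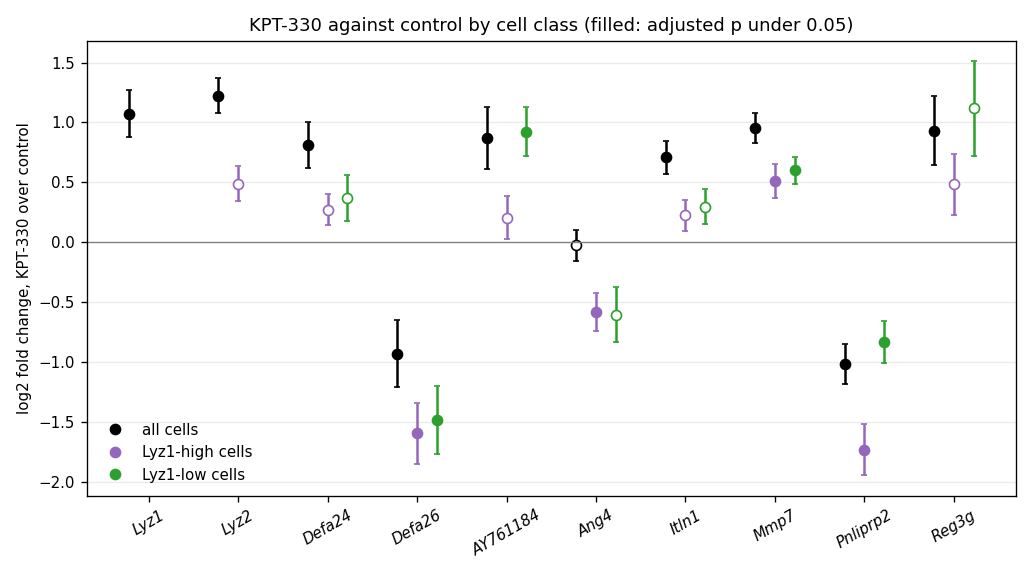
Log2 fold change of KPT-330 over control for each gene in all cells, Lyz1-high cells and Lyz1-low cells, as points with bars of ± 1 SE, filled where the adjusted p is under 0.05. Defa26 (−0.93, −1.60 and −1.49) and Pnliprp2 (−1.02, −1.73 and −0.83) lie under 0 in all 3, and Ang4 is near 0 in all cells (−0.03) and under 0 in both classes (−0.58 and −0.61).

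In Lyz1-low cells, 9 of the 10 genes passed the filter, all but Lyz2, and 8 were tested, Lyz1 being left out. The test called 22% of 12411 genes (10.4% higher and 11.6% lower) and 4 of the 8. Defa26 fell by 1.49 ± 0.28 (adjusted p = 0.0053) and Pnliprp2 by 0.83 ± 0.17 (adjusted p = 0.0072), while AY761184 rose by 0.92 ± 0.20 (adjusted p = 0.0088) and Mmp7 by 0.60 ± 0.12 (adjusted p = 0.0056). Ang4 had −0.61 ± 0.23 (adjusted p = 0.072) and passed on total UMIs alone (−0.82, adjusted p = 0.0228). Reg3g had 1.12 ± 0.39 (adjusted p = 0.056), Defa24 0.37 ± 0.19 and Itln1 0.30 ± 0.15. Defa26 and Pnliprp2 were thus lower on both sides of the Lyz1 cut, and the part of free RNA in the Lyz1-low values was not tested.

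The early days differed in direction for some genes. Defa26 with KPT-330 was 2.05 times its control level at day 0.25 and 1.10 times at day 1, against 0.36, 0.37, 0.26 and 0.30 times at days 2, 3, 4 and 6. AY761184 was 0.98 times at day 0.25 and 0.32 times at day 1 but 1.62, 2.12, 1.79 and 1.68 times later. Levels of both genes at the early days were under 0.22 per 10000 in every library. For the difference between the KPT-330 effect at days 2 to 6 and that at days 0.25 and 1, edgeR called 0 of 12812 genes (0%), with 1283 at an unadjusted p under 0.05, and none of the 10. DESeq2 called 18 of 10328 genes, 3 of them among the 10. The estimates were 2.05 ± 0.43 for AY761184 (adjusted p = 0.37), −1.96 ± 0.51 for Defa26, 1.27 ± 0.34 for Lyz2, 1.18 ± 0.27 for Lyz1 and −1.13 ± 0.31 for Pnliprp2 (adjusted p = 0.37 each).

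Other Paneth cell genes were counted from 4 lists chosen by role. Of 58 listed other alpha-defensins, 18 were in the tables and 13 were tested. During differentiation all 13 rose, against 19.7% of all genes. With KPT-330, 11 rose and 0 fell over all cells, against the 14.4% and 14.2% of all genes, with a median log2 fold change of 0.83, among them Gm15315 at 1.24 ± 0.17 and Gm10104 at 1.29 ± 0.18. In Lyz1-high cells 4 rose and 1 fell, against 3.99% and 2.64% of all genes, with a median of 0.28. Gm10104 rose there by 0.60 ± 0.12 (adjusted p = 0.0076), and Gm14851, like Defa26, fell by 0.54 ± 0.14 (adjusted p = 0.025). Many of these genes share sequence with one another, so that their values are not independent.

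A list of other Paneth cell products, most of them secreted, had 19 tested genes. During differentiation 15 rose, against 19.7% of all genes. With KPT-330, 10 rose and 1 fell over all cells, against 14.4% and 14.2% of all genes. The risers of smallest p were Nupr1, a stress-responsive chromatin protein that is not secreted, at 1.41 ± 0.11, Guca2a, which encodes guanylin, at 0.96 ± 0.12 and Lypd8, an antimicrobial surface protein, at 0.95 ± 0.12. Rnase1, a secreted ribonuclease, fell by 0.75 ± 0.14. In Lyz1-high cells 5 of 18 rose and 2 fell, against 3.99% and 2.64% of all genes, the latter being Rnase1 (by 1.32 ± 0.15, adjusted p = 8.3e-05) and Clps, the lipase cofactor colipase (by 0.69 ± 0.10, adjusted p = 0.00076). Nupr1 (0.79 ± 0.14), Lypd8 (0.67 ± 0.13) and Mptx1, a pentraxin (2.54 ± 0.49), rose.

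Of 12 tested niche signals, 8 rose and 1 fell during differentiation, against 19.7% and 20.2% of all genes. With KPT-330, 3 of the 12 rose over all cells, a share near the 14.4% of all genes. They were Kit, a receptor tyrosine kinase, by 0.37 ± 0.08, the Wnt receptor Fzd5 by 0.50 ± 0.12 and the Notch ligand Dll4 by 0.28 ± 0.10. In Lyz1-high cells 1 fell, against 2.64% of all genes, the Notch ligand Dll1 by 0.55 ± 0.14 (adjusted p = 0.026). Of 12 transcription factors of secretory cells, 10 rose and 1 fell during differentiation, against 19.7% and 20.2% of all genes. With KPT-330, 6 rose over all cells, against 14.4% of all genes. Among them were Spdef by 0.54 ± 0.09, Atoh1 by 0.60 ± 0.12 and Bhlha15 by 0.41 ± 0.08, which act in secretory fate and granule maturation. In Lyz1-high cells 1 rose and 1 fell, against 3.99% and 2.64% of all genes, Foxa3 by 0.36 ± 0.10 and Gfi1 by 0.57 ± 0.16 (adjusted p = 0.043). Without KPT-330 day 6 replicate 1, 9 genes of the list of products and 5 transcription factors rose over all cells, and Gfi1 was no longer called.

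As a description of likeness, the 3 genes outside the 10 whose centred log2 levels lay nearest over the 17 libraries were found among 12122 genes, by root mean square difference. Defa24 was nearest to Defa17 (0.24), Gm15284 (0.45) and Clps (0.63), and Itln1 to Defa17 (0.31), Gm15284 and Defa22. Mmp7 was also nearest to Defa17 (0.49), then Habp2 and Guca2b, and AY761184 to Defa17 (0.48), Defa22 and Defa21. Lyz1 was nearest to Gm15315 (0.44), then Muc2, the goblet cell mucin, and Thbs1, and Lyz2 to Gm15299, Mlph and Dusp10. Ang4 was nearest to Gm14851 (0.48), then Scg2 and Gcg, which enteroendocrine cells express. Pnliprp2 was nearest to Reg4 (0.53), Clps and Cpe, and Defa26 to Pla2g1b (0.56), Map1b and Sct. Among the 10, the nearest gene to Defa26 was Pnliprp2 and to Pnliprp2 was Defa26 (0.60). For Reg3g, Amn and Nudt19 were among the nearest (0.67 each). The 17 libraries share the course over days, so that these values have no p.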

How the data were processed

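Seq-Well S3 libraries were sequenced by the authors with a transcript read of 50 bases, demultiplexed with bcl2fastq, aligned to mm10 with STAR and turned into digital expression tables with the Drop-seq pipeline. The deposited values are UMI counts per gene and cell, not normalised. Cells were those that the authors kept in their merged table, after limits of 500 genes, 35% mitochondrial UMIs and 30000 UMIs and their own removal of doublets; no doublet caller was run again. UMIs were summed per library (3458887 to 12433109) and tested with edgeR 4.0.16 (TMM, filterByExpr, quasi-likelihood, day as covariate) in R 4.3.3, p-values being adjusted by Benjamini and Hochberg's method over every gene tested and 0.05 taken as the limit. Day 6 and day 0 were compared in a fit of all 13 groups. DESeq2 1.42.0 was an alternative. The SE of a fold change was derived from its F statistic. Shares and cell classes were compared by exact permutation of signs over days or libraries. The procedure was tested on simulated data. Lyz1-high cells were those at or over 27 Lyz1 UMIs per 10000, and classes were used in libraries with at least 20 such cells. A pseudocount of 0.1 per 10000 was added for log ratios, and cells were thinned to 1000 UMIs for detection, 16 shallower cells being left out. Wilson intervals (95%) cover counting error only. All 10 genes are named in each comparison, and from each list the 3 called genes of smallest p in each direction; in the text on differentiation only counts are given, and some genes that this rule names are not reported here. The members and lists were chosen with earlier results of these data known. The Defa24 cut, the fits on days 2 to 6 alone and on total UMIs were added after seeing the data. Positions and coding sequence are from GENCODE vM21 (GRCm38), upstream sequence from RefSeq.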

Additional observations from a re-analysis of the deposited data

Results flagged for a closer look

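The KPT-330 effect on 2 genes pointed in opposite directions at the early and the later days. For Defa26 the effect at days 2 to 6 minus that at days 0.25 and 1 was −1.96 on the log2 scale (SE 0.51), with edgeR's adjusted p = 0.37 and an unadjusted p of 0.0020. For AY761184 it was 2.05 (SE 0.43), with an adjusted p = 0.37 and an unadjusted p of 0.00034. Neither passed edgeR's adjusted threshold, whereas DESeq2 called both, with adjusted p of 0.0161 for Defa26 and 0.00125 for AY761184. Over the 22 alternatives the adjusted p ran from 1.1e-09 to 1 for Defa26 and from 1.7e-08 to 1 for AY761184, and each passed in 2. Early levels of both genes were low, at 0.0789 and 0.126 UMIs per 10000 in control and 0.162 and 0.139 with KPT-330 for Defa26. For AY761184 they were 0.0514 and 0.210 in control and 0.0503 and 0.0665 with KPT-330. Each early group was 1 library, and the early libraries all carried replicate number 1. The part of the replicate number in the difference was not tested.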

How the results depend on the processing

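Day 6 control against day 0 called all 10 genes under every alternative run, and the members called over all cells stayed between 6 and 9. DESeq2 called 7 of them over all cells and 3617 of 12812 genes. In Lyz1-high cells, leaving out single libraries gave 2 to 5 called genes. At day 6 alone, with 2 libraries per condition, the count was 8 with no count filter and 6 with DESeq2, which called 194 of 10846 genes. Leaving out a day 6 library leaves 1 library in a condition. The difference between later and early days gave 5 with no count filter and 3 with DESeq2 (18 of 10328 genes). The share of all genes called with no count filter or without single libraries is not given here, so that those counts are a description only. A bar of 25% or 50% of the day 6 level left 2 and 0 genes with onset at day 2. The mean log2 odds ratio of the Lyz1-high share ran from 0.79 to 1.11 without single days or libraries, and no 5 days can pass the exact test (smallest p 0.0625), while Defa24-high cells gave 0.84. Estimates that turned direction were not called in any setting. Over all cells Ang4 ran from −0.12 to 0.030 without single libraries. At day 6, Ang4 ran from −0.078 to 0.18 and Reg3g from −0.48 to 0.80 without single libraries, and on total UMIs they were −0.35 and −0.31. In the difference between later and early days, Ang4 ran from −0.58 to 0.46 and was 0.19 in cells with at least 1000 genes, and Itln1 was −0.033 on total UMIs. The cause of these changes was not tested. Of 1534 comparisons of a gene with its main value, 1380 kept direction and call, 72 lost the call, 47 gained it, 20 moved in onset and 15 turned direction. Replicate numbers were not taken to pair libraries, since deviations of same-numbered libraries correlated at 0.003 to 0.40. With the replicate number as a block, the called members were 9 over all cells, 5 in Lyz1-high cells, 4 in Lyz1-low cells, 10 at day 6 against day 0, 4 at day 6 with KPT-330 (280 of all genes against 168) and 0 for the difference, and Lyz1-high cells had 1258 called genes against 733, Lyz2 being added there (adjusted p = 0.0025) and Defa26 at day 6 (adjusted p = 0.0293). On total UMIs the called genes of day 6 control against day 0 were 1922 higher and 2848 lower against 2649 and 2718, those of Lyz1-high cells 226 and 973 against 441 and 292, those of Lyz1-low cells 611 and 3340 against 1285 and 1441, and those of day 6 with KPT-330 20 and 538 against 84 and 84.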
